A study of Homo sapiens with 24 samples.

Results

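The transcripts of 6 genes of the heat shock response and the unfolded protein response were followed through maps of N6-methyladenosine (m6A), the methylated form of adenosine found within messenger RNAs. The genes were HSP90AB1, HSPB1, DNAJB1, BAG3, HSPA5 and XBP1, out of 9560 genes that carried a peak anywhere, and all 6 were found through the RefSeq accession of their listed transcript. They were chosen by symbol with their peak counts in the 4 lists known, so presence and absence in the lists are descriptions here and were given no test. The maps came from U2OS, a human osteosarcoma cell line, in a wild type (WT) form and in a METTL3 knockout (KO), which lacks the enzyme that writes most m6A on messenger RNA. All cells, controls included, were grown with 10 µM BrdU, and the UV groups received UVC at a dose given as 50 J and were collected after 2 min. RNA bound by an m6A antibody (IP) and its input were sequenced, with 3 IP libraries for WT cells without UV and 4 with it (WT minus UV and WT plus UV), and 3 and 2 for KO cells (KO minus UV and KO plus UV). The number of knockout clones and the origin of the replicates were not given in the sources used here.

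Analysed were 4 deposited peak lists, 1 per condition, each covering all replicates of that condition. A peak is a stretch of a transcript given by its start and end in bases. The lists hold no score, read count or depth. The depth behind each peak is therefore unknown, there is no spread between replicates, and no test between conditions was possible. A transcript without a peak was not shown to lack m6A, and its level was not measured. The lists held 13989, 15465, 13852 and 9471 peaks in the order WT without and with UV, then KO without and with UV. That order is used for all series of 4 values below. By size, the lists followed the number of IP libraries. KO minus UV held nearly as many peaks as WT minus UV, and 68.9% of its peaks overlapped a WT minus UV peak. What the antibody bound in cells without METTL3 was not tested, so a peak in a KO list was not shown to be m6A. Among marker genes of cell types, 4 of 9 osteoblast lineage genes and 0 of 6 blood genes carried a peak in any list. So did 2 of 6 epithelial and 2 of 6 neuronal genes. A missing peak does not show absence, so these counts are no check of the cell line.

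Cells meet misfolded protein with separate programmes for the cytosol and the endoplasmic reticulum. In the cytosol, the transcription factor HSF1 induces chaperones that bind unfolded clients (the HSP90, HSP70 and small heat shock proteins) and co-chaperones that steer them (the J-domain and BAG proteins). In the endoplasmic reticulum, the sensors IRE1 (ERN1), PERK (EIF2AK3) and ATF6 induce the lumenal chaperone BiP, encoded by HSPA5, and IRE1 splices the XBP1 messenger RNA so that it encodes an active transcription factor. On most messenger RNAs m6A is known to lie near the stop codon and in long internal exons, and in heat-shocked cells the mark in the 5′ leader of HSP70 messenger RNA is known for promoting translation that does not need the cap.

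The DNA before the annotated starts was searched for the elements of both programmes, and the matching stretches are shown to let the letters of these elements be seen. The genes were chosen as members of programmes that are known for these elements, so the matches are not independent of the choice and are a description. The RefSeq promoter table (GRCh38.p14) held 11 start windows for the 6 genes, and the 250 bases before each start were searched on both strands. The endoplasmic reticulum stress element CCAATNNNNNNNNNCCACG matched in the window of HSPA5, in 1 of the 2 windows of XBP1 and in 0.0740% of all 35116 windows. The heat shock pattern of 3 alternating units, TTCNNGAANNTTC or its reverse GAANNTTCNNGAA, matched in HSP90AB1 alone among the members and in 0.441% of all windows. The shorter pair GAANNTTC, which is contained in that pattern, matched in HSP90AB1, DNAJB1 and HSPB1 and in 5.78% of all windows, and the pair TTCNNGAA matched in HSP90AB1 and in 6.62%. In the window of BAG3 none of these letters was found. Capitals mark the matches below, which run 5′ to 3′ on the strand of the gene. They are chr9:125241361-125241439 (minus strand) for HSPA5, chr22:28800573-28800651 (minus) for XBP1, chr6:44247748-44247873 (plus) for HSP90AB1, chr19:14518407-14518504 (minus) for DNAJB1 and chr7:76302461-76302528 (plus) for HSPB1.
HSPA5: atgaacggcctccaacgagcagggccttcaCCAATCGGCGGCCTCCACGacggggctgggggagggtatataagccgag
XBP1: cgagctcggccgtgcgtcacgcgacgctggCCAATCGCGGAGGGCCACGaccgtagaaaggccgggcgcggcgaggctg
HSP90AB1: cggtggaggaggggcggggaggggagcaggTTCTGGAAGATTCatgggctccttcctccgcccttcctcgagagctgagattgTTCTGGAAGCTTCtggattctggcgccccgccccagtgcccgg
DNAJB1: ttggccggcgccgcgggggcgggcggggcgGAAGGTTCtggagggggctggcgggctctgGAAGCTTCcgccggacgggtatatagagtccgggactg
HSPB1: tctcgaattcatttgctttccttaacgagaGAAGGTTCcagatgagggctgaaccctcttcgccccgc
The stretches of HSP90AB1 and DNAJB1 belong to 1 of 3 annotated starts each and lie inside the gene's full span. That of XBP1 belongs to 1 of 2 annotated starts. Which start the listed transcripts use was not analysed here. The windows hold none of the peaks by coordinate, since the lists give positions along transcripts, so a match describes the gene and not its peaks.

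The 6 transcripts carried 20 peaks in all, which were 2, 5, 7 and 6 in the order of the lists. Peaks lay on 2, 4, 6 and 5 of the 6 genes in the same order, beside 74.6%, 83.4%, 72.9% and 57.7% of all genes. Nothing is read from these counts, since the genes were chosen with them known. Where peaks of any list overlapped by at least 1 base they were merged, which gave 8 regions on the 6 transcripts. Of these, 2 were in every list, 2 in 3 lists, 2 in 2 lists and 2 in 1 list. Over the 20811 regions of the whole series, 25.7% were in every list and 31.6% in 1 list. All 20 peaks lay away from the start of the transcript, with starts from base 731 upward and ends up to base 2274. In the complete lists between 14.9% and 18.0% of peaks began in the first 200 bases.

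**Figure D1:**
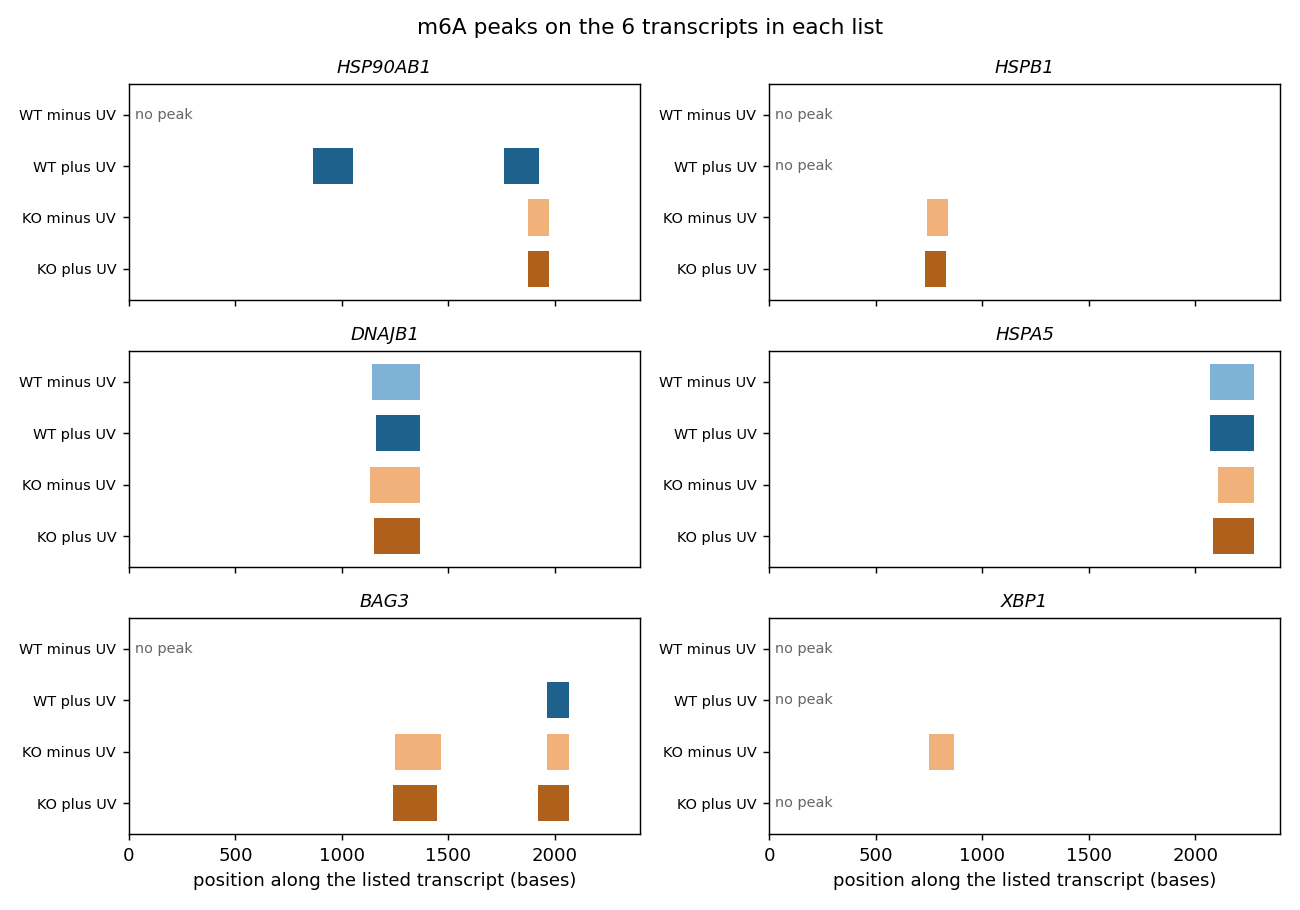
Peaks on the 6 listed transcripts, with the position along the transcript in bases on the horizontal axis and the 4 lists stacked in each panel. Bars span a peak from its start to its end. DNAJB1 and HSPA5 have a bar in every list at the same place, and the other 4 genes have none in WT minus UV.

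HSP90AB1 (chromosome 6, 44246194 to 44253883, GRCh38) encodes HSP90-beta, the constitutive cytosolic HSP90 that folds kinases and steroid receptors. Its listed transcript is NM_001271969, 1 of 6 NM accessions of the gene. It carried 0 peaks in WT cells without UV and 2 after UV, at bases 866 to 1051 and 1761 to 1925. KO minus UV and KO plus UV each carried 1 peak, and both were at bases 1871 to 1970. The KO peaks were identical in both coordinates and had the smallest width in the lists, 100 bases, while the WT plus UV peaks were 186 and 165 bases wide. The peak at 866 to 1051 was in WT plus UV alone. The second WT plus UV peak and the KO peaks shared 55 bases, which is 55.0% of the shorter and 33.3% of the longer, so they count as 1 region at the 1-base rule and as separate regions where 50% of the longer peak must be shared. The reference names 11 pseudogenes of the HSP90A family, and the placing of reads that fit several copies was not given in the sources used here, so the assignment to this gene is uncertain. The same limit applies to HSPB1 and DNAJB1, with 2 named pseudogenes each, and to HSPA5 and XBP1, with 1 each. HSP90AA1, the stress-inducible partner, carried 2 peaks in each of the 4 lists.

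HSPB1 (chromosome 7, 76302673 to 76304292), which encodes the small heat shock protein HSP27, carried no peak in either WT list. Its transcript NM_001540 had 1 peak in KO minus UV at bases 741 to 840 and 1 in KO plus UV at 731 to 830. Both were 100 bases wide, moved against each other by 10 bases, and shared 90 bases. Peaks of that smallest width made up 5.92% of KO minus UV (95% Wilson interval 5.54 to 6.33) and 9.59% of KO plus UV (9.01 to 10.2). Such intervals cover counting error alone, because neighbouring peaks share a transcript and PCR copies of a molecule were not told apart by identifiers. The pattern of HSPB1, listed with and without UV in KO and never in WT, was that of 191 genes (2.00%).

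DNAJB1 (chromosome 19, 14514769 to 14560391) encodes HSP40, the J-domain co-chaperone that delivers clients to HSP70. Its transcript NM_006145 carried 1 peak in every list. In WT cells the peak ran from base 1141 to 1364 without UV and from 1161 to 1364 after it. In KO cells it ran from 1131 to 1365 without UV and from 1151 to 1367 after it. Ends lay within 3 bases of each other and starts within 30. The widths were 224, 204, 235 and 217 bases in that order, and 204 bases were common to all 4 peaks. The KO minus UV peak, at 235 bases, was the widest of the 20, and 80.1% of the peaks in that list were no wider.

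BAG3 (chromosome 10, 119651380 to 119677819) encodes a co-chaperone that couples HSP70 to small heat shock proteins and to autophagy. On its transcript NM_004281 the lists differed by region. The upstream region carried a peak at bases 1251 to 1462 in KO minus UV and at 1241 to 1446 in KO plus UV, and none in either WT list. The downstream region carried a peak at 1961 to 2064 in WT plus UV, the same peak at 1961 to 2064 in KO minus UV, and one at 1921 to 2064 in KO plus UV. All 3 ended at base 2064, and no peak was listed in WT minus UV. The KO-only region rested on peaks of 212 and 206 bases, wider than about 70% of the peaks of their lists (70.1% and 70.4% were narrower). In the downstream region the WT plus UV and KO minus UV peaks were both 104 bases wide, with 5.18% and 6.48% of their lists narrower. The KO plus UV peak there was 144 bases wide, with 26.4% narrower.

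HSPA5 (chromosome 9, 125234853 to 125241343) encodes BiP, the HSP70 of the endoplasmic reticulum that holds the stress sensors inactive. Its transcript NM_005347 carried 1 peak in every list. In WT cells the peak ran from base 2071 to 2273 and had the same coordinates with and without UV. In KO cells it ran from 2107 to 2274 without UV and from 2081 to 2274 after it. Widths were 203, 203, 168 and 194 bases, and 167 bases were common to all. The narrower KO peaks differed at the start, by up to 36 bases, and by 1 base at the end. HSP90B1, the HSP90 of the same compartment, carried 3, 3, 3 and 1 peaks.

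XBP1 (chromosome 22, 28794560 to 28800569) encodes the transcription factor activated by IRE1 splicing. Its transcript NM_005080 carried 1 peak, at bases 751 to 867 in KO minus UV, and none in the other 3 lists. At 117 bases it was wider than 10.1% of the peaks of that list. In all, 405 genes (4.24%) were listed in KO minus UV alone. Among them was ERN1, which encodes IRE1 itself, with 2 peaks over 450 bases in that list. DNAJB11, a J-domain co-chaperone of BiP, had 1 peak of 100 bases there and none elsewhere.

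**Figure D2:**
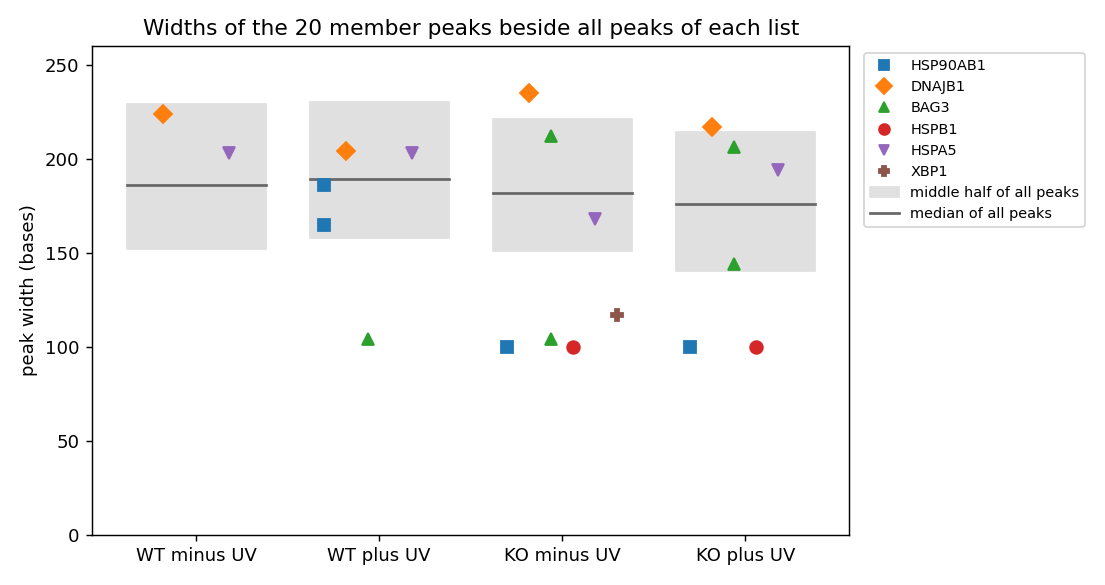
Width of each of the 20 peaks in bases on the vertical axis, by list, with a symbol and colour per gene. Grey boxes run from the lower to the upper quartile of all peaks in the list and the line is their median. HSP90AB1 and HSPB1 lie at 100 bases in both KO lists, and DNAJB1 and HSPA5 lie between 168 and 235 bases in every list.

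In WT cells, UV was compared with no UV to ask whether m6A is placed on transcripts soon after damage. Of the 6 genes, BAG3 and HSP90AB1 were listed with UV and not without it, which held for 17.4% of all genes. With peaks of at least 150 bases HSP90AB1 remained of these 2, since the BAG3 peak is 104 bases wide, beside 1713 of all 8552 genes with such a peak. None of the 6 carried a peak without UV alone, against 8.61% of all genes. HSPA5 and DNAJB1 kept their region and HSPB1 and XBP1 had no WT peak. Of the 5 WT plus UV peaks on the 6 transcripts, 2 overlapped a WT minus UV peak, beside 70.0% of all peaks of that list. The list with UV rested on 1 more IP library, 4 in place of 3.

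In KO cells the same comparison showed 1 gene with a difference in presence. XBP1 carried its peak in KO minus UV and none in KO plus UV, which held for 23.8% of all genes. None of the 6 carried a peak in KO plus UV and none in KO minus UV, against 8.62% of all genes. All 6 peaks of KO plus UV overlapped a KO minus UV peak and 6 of the 7 KO minus UV peaks were found again, beside 77.4% and 53.0% of all peaks in these lists. HSP90AB1, HSPB1 and both BAG3 regions were listed in both KO lists. KO plus UV came from 2 IP libraries and KO minus UV from 3, and the part of library number was not tested.

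Between the genotypes without UV, 4 of the 6 genes (BAG3, XBP1, HSP90AB1 and HSPB1) carried a peak in KO alone, beside 14.7% of all genes. This is the contrast known when the genes were chosen, and nothing is read from it. None carried a peak in WT alone, against 16.4% of all genes. At the level of peaks, 2 of 7 KO minus UV peaks overlapped a WT minus UV peak, beside 68.9% of that list, and both WT minus UV peaks overlapped a KO peak, beside 67.9%. After UV, HSPB1 carried a peak in KO cells only (5.68% of all genes) and no member carried one in WT alone (31.4%). With peaks wider than 100 bases these counts turned to 0 and 1, the latter being HSP90AB1, beside 5.57% and 33.4% of all genes. Of the WT plus UV peaks 4 of 5 overlapped a KO plus UV peak, beside 49.0% of that list, and of the KO plus UV peaks 4 of 6 overlapped a WT plus UV peak, beside 80.7%. The KO plus UV peaks without an overlap were those of HSPB1 and of the upstream region of BAG3.

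Width and peak number went with presence in the complete lists. Of the 820 KO minus UV peaks that were 100 bases wide, 48.4% (45.0 to 51.8) overlapped a WT minus UV peak, and of those 200 to 249 bases wide 77.7% (76.1 to 79.1). For WT plus UV peaks against WT minus UV the same shares were 40.2% (36.6 to 43.8) and 77.7% (76.3 to 79.0). Genes with 1 KO minus UV peak had no WT minus UV peak in 31.1% of cases (29.6 to 32.7), and genes with at least 2 in 10.3% (9.33 to 11.3). Among the members, HSP90AB1, HSPB1, XBP1, HSPA5 and DNAJB1 had 1 KO minus UV peak, and the last 2 had a WT minus UV peak as well. BAG3 had 2 KO minus UV peaks and none in WT minus UV. Of the 5 member peaks in KO minus UV without an overlapping WT minus UV peak, 4 were 117 bases wide or less. The other was the 212-base peak of BAG3. Among the 5, the HSP90AB1 peak and the 104-base peak of BAG3 overlapped a WT plus UV peak. The part of peak width in these differences was not tested. Limiting the lists to peaks wider than 100 bases left HSPB1 without a peak and HSP90AB1 listed after UV in WT cells alone, so that BAG3 and XBP1 were the 2 genes in KO minus UV and not in WT minus UV, beside 15.7% of all genes under that limit. Limiting them to at least 150 bases left BAG3 there, beside 16.1% of the 8552 genes with such a peak.

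**Figure D3:**
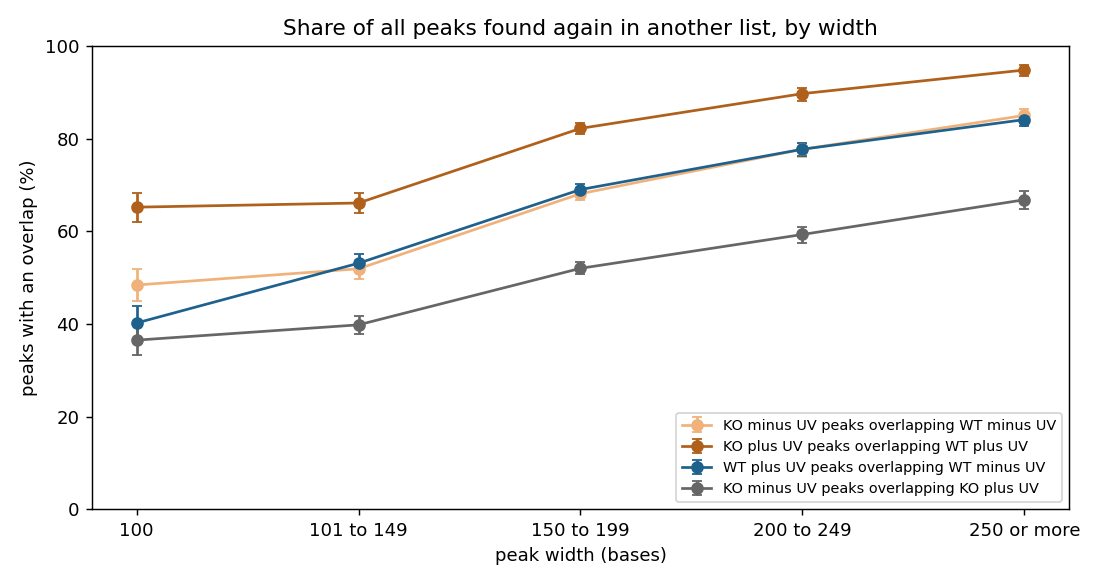
Share of all peaks of a list that overlap a peak of another list by at least 1 base, in percent, by the width of the peak in bases. Bars are 95% Wilson intervals for counting error, and each line is a pair of lists. In KO minus UV against WT minus UV the share is 48.4% at 100 bases and 77.7% at 200 to 249 bases.

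Peaks of a region in different lists differed less at the end than at the start on these transcripts. The 8 regions gave 20 pairs of overlapping peaks from different lists, with a median difference of 15 bases between starts and 1 base between ends. Ends lay within 3 bases in 16 of the 20 pairs and starts in 3. The pairs share peaks, and 12 of the 20 come from HSPA5 and DNAJB1. Of the 20 member peaks, 18 had a start ending in the digit 1 and 4 had an end ending in 0. In the complete lists this held for 49.3% to 56.0% of starts and 41.9% to 47.2% of ends. Starts that end in the same digit are either equal or several bases apart. The part of this grid in the contrast between starts and ends was not tested. Over all genes, only pairs in which each peak overlapped 1 peak of the other list were counted. Of those between WT plus UV and WT minus UV, 35.5% had ends within 3 bases and 34.0% had starts within 3. In the other pairs of lists that were counted, the shares were 28.7% to 31.4% for ends and 27.6% to 28.7% for starts. Over the 4483 regions with 1 peak in each list, ends spanned a median of 21 bases and starts of 26, and 12.3% had ends within 3 bases, as DNAJB1 and HSPA5 did. In 3 pairs both coordinates were identical (HSPA5 between the WT lists, HSP90AB1 between the KO lists and BAG3 between WT plus UV and KO minus UV). This held for 3.32% of the counted pairs between the WT lists and 2.49% between the KO lists. Between the genotypes it held for 1.92% without UV and 1.94% after UV. The share for WT plus UV with KO minus UV was not counted.

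The wider programmes were read through lists of 53 heat shock and cytosolic chaperone genes and 48 unfolded protein response genes, of which 41 and 43 carried a peak in any list. These lists include the 6 members, and 52 of the 53 symbols of the former were matched to the reference. In the order of the lists above, peaks lay on 34, 35, 37 and 30 of the 41 and on 37, 39, 38 and 36 of the 43. Over all genes with a peak the shares were 74.6%, 83.4%, 72.9% and 57.7%. Of the genes with a peak in any list, 24 of 41 (58.5%) and 31 of 43 (72.1%) had a peak in every list, beside 41.2% of all genes. By total peak length over the lists, PPP1R15B, a phosphatase subunit that reverses PERK signalling, led the unfolded protein genes found in all of them, with 5, 5, 6 and 3 peaks. It was followed by SEL1L of the degradation complex with 4, 4, 3 and 4 and by the sensor EIF2AK3 with 4, 4, 5 and 2. In the cytosolic group BAG5 led with 3, 4, 2 and 2 peaks and DNAJB6 carried 2, 2, 3 and 2.

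Without the 6 members, 7 of 78 genes (8.97%) had a peak in KO minus UV and none in WT minus UV, beside 14.7% of all genes, and 7 (8.97%) the reverse, beside 16.4%. The first 7 included ERN1, TRAP1, SDF2L1 and MANF, the last 2 being lumenal stress proteins, and the other 7 included the ATF6 protease gene MBTPS2, DNAJB14, CDC37, which recruits kinases to HSP90, and EDEM3. After UV in WT cells, 4 of the 78 were listed that were not before (5.13%, beside 17.4% of all genes), which were DNAJB4, CHAC1, SDF2L1 and MANF. The reverse held for 3 (3.85%, beside 8.61%), which were BAG2, DNAJA2 and MBTPS2. In KO cells 5 were listed with UV alone (6.41%, beside 8.62%), among them DNAJB4, CHAC1 and BAG4. Without UV alone there were 13 (16.7%, beside 23.8%), among them the HSP70 cofactor ST13, DNAJA4, DNAJC3 and ERN1, with 2 IP libraries behind the list with UV and 3 behind the other. Between the lists with UV, 10 had a peak in WT cells only (12.8%, beside 31.4%), among them DNAJA4, DNAJB14, CDC37 and DNAJC3, and 1, BAG2, in KO cells only (1.28%, beside 5.68%). In every one of these pairs and directions the share was below that of all genes, and the difference was not tested. The 6 members left out were chosen with their presence known, so their removal sets part of these shares. With them, 11 of 84 genes had a peak in KO minus UV and none in WT minus UV.

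**Figure D4:**
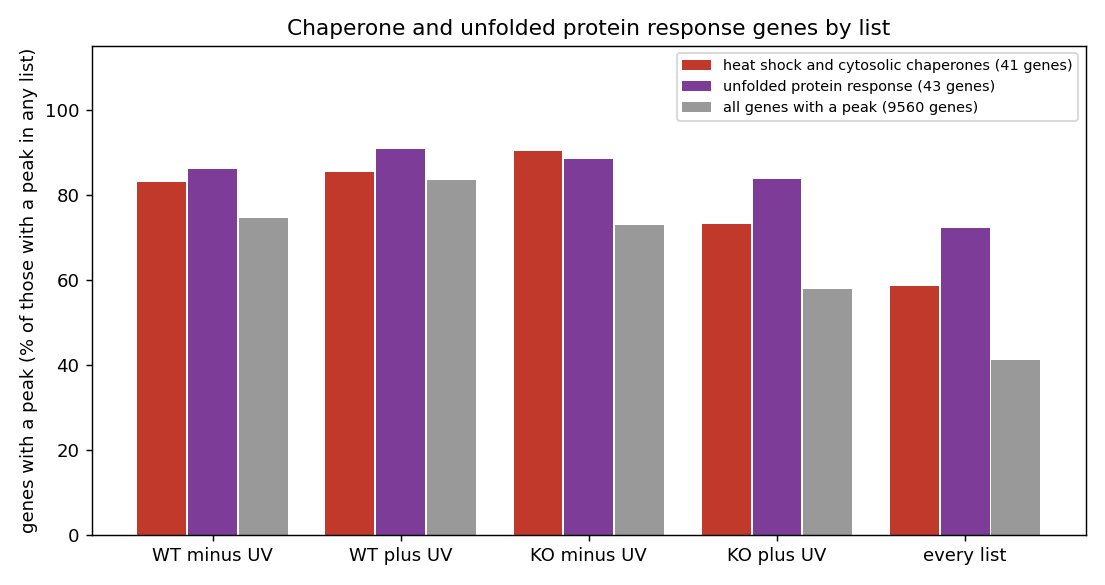
Genes with a peak in each list, and in every list, as a percentage of the genes of each group with a peak in any list. Bars are the 41 heat shock and cytosolic chaperone genes, the 43 unfolded protein response genes and all 9560 genes. The share in every list is 58.5%, 72.1% and 41.2%, and there is no replicate error.

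Likeness to a member was measured as the sum of absolute differences of the peak counts over the 4 lists, among the 78 other genes of both programmes. HSPA5 and DNAJB1, with 1 peak in each list, shared their counts with 16 of them, among them ATF4, BAG1, CALR and CRYAB, and with 820 of all genes (8.58%) including themselves. XBP1 shared its counts exactly with DNAJB11, DNAJB2, DNAJB5 and TRAP1. HSPB1 differed by 1 from DNAJB11, DNAJB2, DNAJB5 and MANF among 6 genes, and HSP90AB1 by 1 from CHAC1, DERL2, DNAJB9 and MANF among 5. BAG3 was least like the rest, with a smallest sum of 2, reached by HERPUD1, HSPD1, MANF, NFE2L2 and SDF2L1. A peak in every list except WT minus UV was found for 442 genes (4.62%), and for BAG3, HSP90AB1, MANF and SDF2L1 in the 84 genes of both programmes. MANF carried 0, 1, 1 and 1 peaks of 100 bases, and SDF2L1 0, 1, 1 and 1 peaks of 166, 167 and 166 bases in the lists that held one.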

How the data were processed

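Reads of 50 bases from 24 libraries (12 IP, 12 input) were aligned with TopHat2 2.0.14 to hg38, per the submitters' processing notes. The authors deposited 4 peak lists with no signal unit (other): each entry is a RefSeq accession with a start and end along the transcript, without a score. Caller, threshold and the treatment of replicates and inputs were not given in the sources used here. Positions were read as counted from 1 with both ends included, which gives a smallest width of 100 bases.

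Accessions were matched to symbols through a RefSeq gene table (GRCh38.p14), for 9563 of 9674 transcripts (98.9%). Gene counts used the 9560 genes with a peak in any list. Peaks were called shared at an overlap of at least 1 base on the same transcript, with code tested on simulated data (Python 3.11.15, pandas 2.3.3, SciPy 1.17.1). No test was possible with 1 list per condition. The members and gene lists were chosen with earlier results of these data known. Named genes were the members, up to 6 genes per list, pair and direction and in every list by total peak length, a selection of which is printed, and up to 4 by likeness (SDF2L1 for BAG3, and DNAJB11, MANF, HSP90AA1 and HSP90B1 elsewhere, were added after their values were seen). Alternatives were 2 stricter overlaps, 2 width limits, merging within 100 bases and leaving out copy-numbered transcripts. Sequences are from the RefSeq promoter table.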

Additional observations from a re-analysis of the deposited data

How the results depend on the processing

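No paired analysis was possible because each condition has 1 list for all its replicates, and for the same reason none was left out. Stricter overlaps (50% of the shorter or of the longer peak), merging within 100 bases and leaving out copy-numbered transcripts kept every count within 1.5 times its value. With peaks wider than 100 bases only, members with a peak in KO minus UV and not in WT minus UV went from 4 to 2, those in WT plus UV and not in KO plus UV from 0 to 1 (HSP90AB1), and those in KO plus UV and not in WT plus UV from 1 to 0. With peaks of at least 150 bases only, these became 1, 1 and 1 (BAG3 in place of HSPB1 for the last). Under that limit members gained with UV in WT cells went from 2 to 1 and lost in KO cells from 1 to 0, and merged regions from 8 to 5. Member peaks found again between the KO lists then numbered 3 in each direction in place of 6, and between the UV lists 2 in place of 4. The share of all peaks found again was not counted under that limit. The lists hold no depth, so what a deeper library would add is unknown.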

Other observations

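The BAG co-chaperones, which exchange nucleotide on HSP70, were followed as a family after their values were seen. BAG1 carried 1 peak in each list, of 200, 212, 218 and 170 bases in the order WT without and with UV, then KO without and with UV. BAG2 carried 2, 0, 1 and 2 peaks, BAG4 carried 1, 2, 0 and 1, and BAG5 carried 3, 4, 2 and 2. BAG3, with 0, 1, 2 and 2, was absent from WT minus UV, BAG2 from WT plus UV and BAG4 from KO minus UV, so each of these 3 genes was missing from a different list. The J-domain genes DNAJB2, DNAJB5 and DNAJB11 each carried a peak of 100 to 110 bases in KO minus UV alone, while DNAJB4 carried a peak of 210 bases in WT plus UV and of 170 bases in KO plus UV and none without UV. CHAC1, a glutathione-degrading enzyme induced by ATF4, likewise carried peaks in the UV lists alone, 2 in WT and 1 in KO. Other J-domain genes, among them DNAJB6, DNAJB9, DNAJB12, DNAJC7 and DNAJC10, carried a peak in every list. A peak in KO minus UV alone was found for 4.24% of all genes. The shares of all genes with the other patterns of this paragraph were not counted, so nothing is read from them. With 1 list per condition these differences were not tested.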
